A study of Mus musculus with 16 samples.

Results

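Early response genes are transcribed within minutes of a signal, and stress responders of the GADD45 class adjust growth, translation and survival. In mouse pre-B cells, 8 such genes were followed after stimulation: 3 Ier genes (Ier2, Ier3, Ier5), Apold1, Ppp1r15a and 3 Gadd45 genes (Gadd45a, Gadd45b, Gadd45g). They are 8 of the 38918 features in the deposited tables, found by symbol. The group was put together with results of these libraries in view, so the members were selected on values of the same contrasts that are described here, and their levels and ratios are a description with no test.

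The cells were Blnk-/- pre-B cells, precursors of B lymphocytes, from mice that lack BLNK, the adaptor that couples the pre-B cell receptor (preBCR) to its downstream enzymes. All of them, the control included, carried BLNK-ERt2 from a retrovirus, labelled as overexpressed and tamoxifen inducible. ERt2 is a mutant oestrogen receptor domain that keeps a fused protein inactive until tamoxifen binds. A control was set beside stimulation times of 0.5, 1.5 and 5 h, and the study asked which genes answer preBCR signalling. What the control received, the age of the mice and whether the cells were 1 clone are not stated in the labels. Each condition had 4 samples, which were 4 sequencing lanes of 1 library with 1 index, so the lanes were summed and no test between conditions was possible.

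The 4 summed libraries held 30746189 to 34533362 exon reads, and levels are given as exon reads scaled to library totals of 1000000 (CPM). A count of 0 allows up to 3 reads, which is 0.0869 to 0.0976 CPM. All 7 pre-B markers exceeded 1 CPM in every library, with a summed level of 8583 to 9733 CPM, of which Blnk, also carried by the construct, gave the largest single part. Markers of T and NK, erythroid and stromal cells were below 1 CPM in every library. Of 7 endothelial markers only Pecam1 was above 1 CPM, at 130 to 167 CPM, and the other 6 summed to 1.65 to 2.01 CPM. Of 7 myeloid markers 4 were above 1 CPM, mostly Itgam at 35.9 to 68.98 CPM. The 7 summed to 75.5, 74.9, 66.3 and 41.8 CPM in the control, 0.5, 1.5 and 5 h libraries, and their part in the results was not tested. In bulk RNA, fewer cells that express a gene and less of its RNA per cell cannot be told apart.

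Ier genes are named for their immediate early response. Ier2 encodes a small nuclear protein, Ier5 a related nuclear protein tied to phosphatase PP2A and to heat shock factor HSF1, and Ier3 a survival regulator controlled by NF-kB and p53. Apold1, an apolipoprotein L domain protein, is best known as an early response gene of endothelial cells. Ppp1r15a encodes GADD34, the stress-induced subunit that brings protein phosphatase 1 to translation factor eIF2 and restores protein synthesis. GADD45 proteins are small acidic proteins that bind the kinase MAP3K4, PCNA, CDK1 and p21.

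Apold1, Ier2 and Ppp1r15a were called higher at 0.5 h against control, Apold1 also at 1.5 h, and no member was called in either direction at 5 h. Gadd45b had lower levels in all 3 stimulated libraries, each short of a call. A call needed 2-fold or more once 1 CPM was added to each library, and at least 5 CPM in the higher one. Calls at 0.5 h against control took 3 of 8 members in the higher direction, where 0.284% of 9516 features were called, and 0 in the lower direction, where 0.021% were. At 1.5 h against control 1 member was called higher, beside 0.641% of 9512 features, and 0 lower, beside 0.21%. At 5 h against control the members gave 0 calls, while 0.336% of 9520 features were higher and 0.399% lower. Because the members were chosen with these contrasts known, nothing is read from these counts. Over all 8 members the median log2 ratio to control was 0.47 at 0.5 h, 0.31 at 1.5 h and -0.18 at 5 h. The median of all tested features was within 0.01 of 0 each time. The 5 CPM floor was met by 6, 6 and 5 members in the same order. Ier3 and Gadd45g were under that floor in every library.

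**Figure D1:**
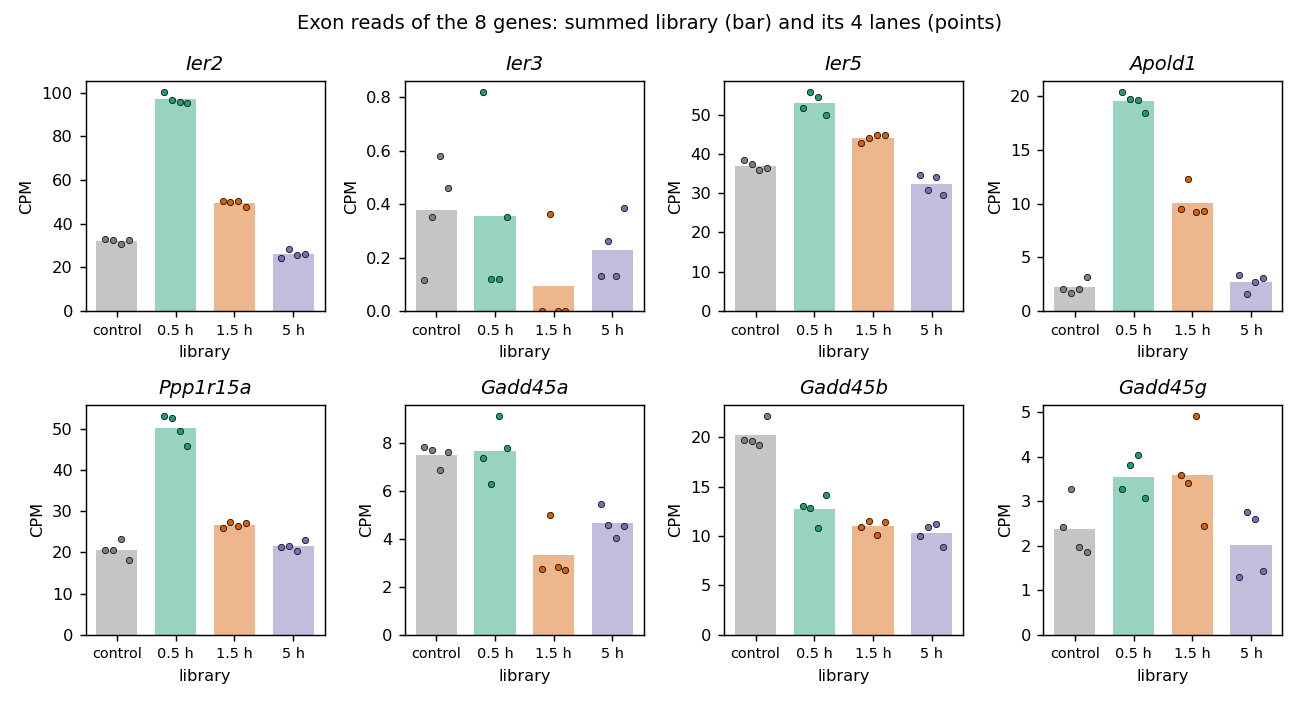
Exon reads (CPM, linear axes from 0) of each gene in the control, 0.5, 1.5 and 5 h libraries; bars are the summed library and points its 4 lanes. Ier2, Apold1 and Ppp1r15a stand highest at 0.5 h (97.0, 19.6 and 50.3 CPM), while Gadd45b is highest in the control (20.2 CPM).

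The promoters of Apold1 and Ppp1r15a, called higher at 0.5 h, and of Gadd45b, lower in every stimulated library, are shown to set genes with opposite signs of their ratios side by side. They run from 250 bases before to 50 bases after the annotated start, 5′ to 3′, from RefSeq for build GRCm38.p6. Of the 8 members 7 had an entry, and Ier2 is named only. Apold1 lies at chr6:134981751-134982050, plus strand, Ppp1r15a at chr7:45526219-45526518, minus strand and Gadd45b at chr10:80929841-80930140, plus strand. Capitals mark matches to TATAAA, to TGACGTCA (the cyclic AMP response element) and TGACG (a match to part of that element, inside which it also lies), to CACGTG (the E-box) and to GCGNGGGCG (the EGR site), each searched on both strands.
Apold1: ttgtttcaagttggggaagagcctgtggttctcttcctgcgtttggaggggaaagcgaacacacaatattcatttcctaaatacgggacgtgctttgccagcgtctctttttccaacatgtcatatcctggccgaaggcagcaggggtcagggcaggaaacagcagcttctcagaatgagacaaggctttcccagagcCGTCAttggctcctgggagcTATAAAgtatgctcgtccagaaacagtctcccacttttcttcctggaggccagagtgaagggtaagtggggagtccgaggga
Ppp1r15a: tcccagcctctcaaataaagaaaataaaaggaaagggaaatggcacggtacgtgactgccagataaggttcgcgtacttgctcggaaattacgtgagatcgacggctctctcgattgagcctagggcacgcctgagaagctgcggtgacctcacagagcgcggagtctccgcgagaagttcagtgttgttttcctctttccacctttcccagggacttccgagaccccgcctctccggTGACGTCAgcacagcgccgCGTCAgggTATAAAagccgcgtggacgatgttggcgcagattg
Gadd45b: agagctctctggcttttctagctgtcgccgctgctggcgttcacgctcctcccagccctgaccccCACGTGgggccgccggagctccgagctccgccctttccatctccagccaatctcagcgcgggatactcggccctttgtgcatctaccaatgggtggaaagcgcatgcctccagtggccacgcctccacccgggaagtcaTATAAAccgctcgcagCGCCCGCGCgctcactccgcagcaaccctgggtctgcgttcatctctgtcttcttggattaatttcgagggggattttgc
Ppp1r15a held TGACGTCA, its first base 12 bases before the start, and 1.79% of 32851 promoters of the same length hold it. TGACG was found in Apold1, 52 bases before the start, and in Ppp1r15a, and in 20.8% of all promoters. TATAAA was in Apold1, Ppp1r15a, Gadd45b and Gadd45g, 4 of 7 members, and in 13.6% of all. It began 32, 46 and 27 bases before the start in Apold1, Gadd45b and Gadd45g. In Ppp1r15a it lay after the start, its first base at position 16. CACGTG was in Gadd45b, 185 bases before the start, and in Gadd45g, and in 7.15% of all. The EGR site was in Gadd45b alone of the 7, 30 bases before the start, and in 5.55% of all. The NF-kB site, searched by name, was in Ier3, 92 bases before the start, and in 4.51% of all. GGGCGG, the SP1 box, was in 4 of 7 members and in 35.7% of all. The CArG box and the heat shock element, both searched by name, TGANTCA (AP-1) and CCGGAAG (ETS) were in 0 of 7 windows, against 1.63, 0.603, 7.81 and 8.86% of all promoters. A match is a run of letters in this window and not a shown site.

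Ier2 (chr8:84661331-84662852 in mm10, minus strand, a single-exon gene) had the highest level per exon length of the 8 in every library. Its 4 lanes held 33.1, 32.7, 30.9 and 32.5 CPM in the control, 100.4, 96.7, 95.8 and 95.2 CPM at 0.5 h, 50.3, 50.2, 50.4 and 47.5 CPM at 1.5 h, and 24.2, 28.4, 25.7 and 26.3 CPM at 5 h. The lanes of the 4 libraries did not overlap anywhere, with 0.5 h far above the rest and 5 h below the control. For every gene, the lanes come from 1 library per condition. Lanes that lie apart therefore say nothing on the spread between cultures. Against control, Ier2 was 3.01-fold higher at 0.5 h, with an exact 95% counting interval of 2.81 to 3.22. By log2 ratio with 1 CPM added, the scale of every rank given here, it was 16th from the top of 9516 features. It stood at 1.54-fold of control (1.42 to 1.66) at 1.5 h and 0.81-fold (0.739 to 0.888) at 5 h, neither past the call. Of the 64.8 CPM gained over control at 0.5 h, 26.7% was left at 1.5 h. These intervals cover counting error only, since the reads carry no molecular identifiers and the spread between cultures was not measured.

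Ier5 (chr1:155096367-155099636, minus strand, single-exon) followed the same order at smaller size. Its lanes held 38.4, 37.4, 35.8 and 36.3 CPM in the control, 51.8, 55.7, 54.5 and 49.9 CPM at 0.5 h, 42.7, 44.0, 44.9 and 44.9 CPM at 1.5 h, and 34.7, 30.9, 34.1 and 29.6 CPM at 5 h. Again no lanes of different libraries overlapped, which does not measure the spread between cultures, and no ratio reached 2-fold. How many of all features have lanes apart in this way was not counted. Ier5 was at 1.43-fold of control (1.33 to 1.54) at 0.5 h, 1.19-fold (1.11 to 1.29) at 1.5 h and 0.874-fold (0.804 to 0.95) at 5 h. Of its 16.0 CPM gain at 0.5 h, 44.8% was left at 1.5 h.

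Ier3 (chr17:35821684-35822923, plus strand, 2 exons) was close to undetected. It had 13, 12, 3 and 7 reads in the control, 0.5, 1.5 and 5 h libraries, or 0.376, 0.354, 0.0919 and 0.228 CPM. The 3 reads at 1.5 h all lay in lane 2. It stood at 0.941-fold of control (0.393 to 2.24) at 0.5 h, 0.244-fold (0.0446 to 0.889) at 1.5 h and 0.605-fold (0.204 to 1.63) at 5 h. The intervals at 0.5 and 5 h include 1, so a difference was not detectable there at this depth, and the interval at 1.5 h lies below 1 but rests on 3 reads. Summed over the 3 Ier genes, nearly all of it Ier2 and Ier5, exon reads came to 69.6 CPM in the control, 150.4 CPM at 0.5 h, 93.8 CPM at 1.5 h and then 58.7 CPM at 5 h.

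Apold1 (chr6:134982001-134986836, plus strand, 2 exons) had the largest ratio of the members. Its lanes held 2.07, 1.64, 2.09 and 3.12 CPM in the control, 20.4, 19.7, 19.7 and 18.4 CPM at 0.5 h, 9.51, 12.3, 9.22 and 9.30 CPM at 1.5 h, and 3.38, 1.57, 2.74 and 3.10 CPM at 5 h. Lanes at 0.5 and 1.5 h were above every control lane and apart from each other, and those at 5 h overlapped the control. Against control it was 8.77-fold higher at 0.5 h (6.92 to 11.3), and by log2 ratio with 1 CPM added it ranked 2nd of 9516 features. By the plain ratio of CPM, features above it included Egr1, Egr2, Fosb and the chemokine gene Ccl4, the last under 5 CPM in both libraries. At 1.5 h Apold1 was 4.52-fold higher (3.52 to 5.87), ranked 4th of 9512. At 5 h it stood at 1.21-fold (0.877 to 1.67) and under 5 CPM in both libraries. Of the 17.3 CPM gain, 45.3% was left at 1.5 h and 2.71% at 5 h. Its peak was below 20 CPM, so a floor at that level removed its calls. Beside this endothelial gene, the defining endothelial markers other than Pecam1 were at 1.65, 2.01, 1.87 and 1.92 CPM in sum in the control, 0.5, 1.5 and 5 h libraries.

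Ppp1r15a (chr7:45522916-45526268, minus strand, 2 or 3 exons by transcript) was highest at 0.5 h and close to control at 5 h. Its lanes held 20.7, 20.6, 23.1 and 18.0 CPM in the control, 53.2, 52.5, 49.6 and 45.8 CPM at 0.5 h, 25.9, 27.3, 26.4 and 27.2 CPM at 1.5 h, and 21.3, 21.6, 20.2 and 23.1 CPM at 5 h. The 0.5 h lanes stood clear of all others, the 1.5 h lanes lay just above the control, and the 5 h lanes lay within the control's range. It was 2.44-fold higher at 0.5 h (2.23 to 2.67), ranked 21st of 9516. It stood at 1.30-fold (1.17 to 1.44) at 1.5 h and 1.05-fold (0.941 to 1.17) at 5 h. Of the 29.7 CPM gain, 20.7% was left at 1.5 h. Tulp2 overlaps it on the other strand, at 0.245 to 0.521 CPM. The strand of counting is not stated, so reads of the overlapping stretch cannot be told apart.

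**Figure D2:**
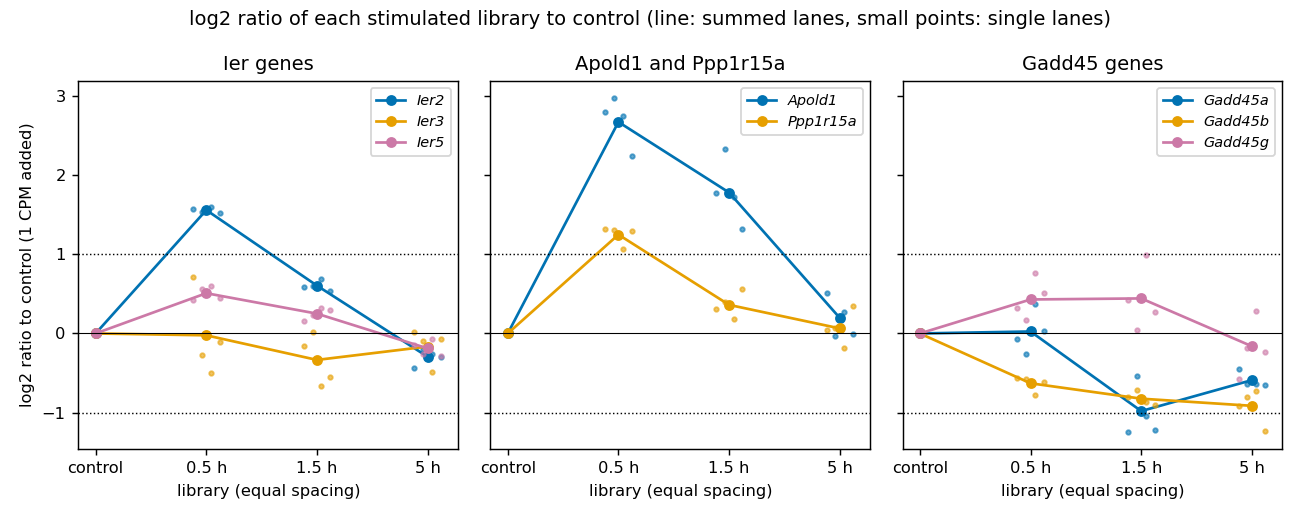
Log2 ratio of each stimulated library to control with 1 CPM added, by gene family; lines join summed libraries, small points are ratios within a lane number, and dotted lines mark 2-fold. Apold1 reaches 2.67 at 0.5 h and 1.78 at 1.5 h, Ier2 1.56 and Ppp1r15a 1.25 at 0.5 h, and Gadd45b lies at -0.63, -0.82 and -0.91.

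Gadd45b (chr10:80930091-80932204, plus strand) is the family member that NF-kB and TGF-beta are known to induce, and it was the most abundant of the 3 in every library. Its lanes held 19.8, 19.6, 19.2 and 22.2 CPM in the control, 13.0, 12.8, 10.8 and 14.2 CPM at 0.5 h, 10.9, 11.6, 10.1 and 11.4 CPM at 1.5 h, and 10, 10.9, 11.2 and 8.91 CPM at 5 h. Every stimulated lane was below every control lane, and the stimulated libraries overlapped one another. Gadd45b stood at 0.629-fold of control (0.557 to 0.711) at 0.5 h, where it was 13th from the bottom of 9516 features. It was at 0.544-fold (0.477 to 0.618) at 1.5 h and 0.508-fold (0.443 to 0.581) at 5 h. With 1 CPM added the 5 h ratio was -0.91 on the log2 scale, just short of a call.

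Gadd45a (chr6:67035096-67037457, minus strand), the p53-responsive member, was lowest at 1.5 h. Its lanes held 7.81, 7.71, 6.86 and 7.63 CPM in the control, 7.38, 6.30, 9.13 and 7.78 CPM at 0.5 h, 2.72, 4.98, 2.83 and 2.69 CPM at 1.5 h, and 5.45, 4.59, 4.04 and 4.52 CPM at 5 h. Lane 2 at 1.5 h lay within the 5 h range, and the other 3 lanes at 1.5 h were below every lane of the other libraries. It stood at 1.02-fold of control (0.855 to 1.22) at 0.5 h, 0.441-fold (0.349 to 0.555) at 1.5 h and 0.62-fold (0.502 to 0.764) at 5 h. The 1.5 h value, -0.98 on the log2 scale with 1 CPM added, was just outside a call, and without lane 2 it was -1.17 and called. Its reads were 61.8 to 76.2% uniquely placed, with 64.1% in the control and 76.2% at 5 h. In unique reads it stood at 0.979-fold of control (0.783 to 1.22) at 0.5 h and 0.45-fold (0.336 to 0.598) at 1.5 h. The 5 h ratio in unique reads was nearer to 1 than in total reads, at 0.733-fold (0.57 to 0.939). E230016M11Rik, which overlaps Gadd45a on the other strand, had 1.04 to 1.74 CPM.

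Gadd45g (chr13:51846678-51848468, plus strand), a member known to be induced by cytokines, stayed below 5 CPM. Its level was 2.38, 3.54, 3.59 and 2.02 CPM in the control, 0.5, 1.5 and 5 h libraries, from 82, 120, 117 and 62 exon reads. Lanes of the control spanned 1.85 to 3.27 CPM and overlapped those of every stimulated library. The ratio to control was 1.49-fold (1.12 to 2.001) at 0.5 h, 1.51-fold (1.13 to 2.03) at 1.5 h and 0.849-fold (0.601 to 1.196) at 5 h. Summed over the 3 Gadd45 genes, exon reads came to 30.1, 23.9, 17.9 and 16.9 CPM in the control, 0.5, 1.5 and 5 h libraries. Per exon length, Gadd45b made up 71.8, 57.7, 63.7 and 65.0% of the family's level in the same order.

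Levels were compared between genes as CPM per kilobase of exon. In the control the order was Ier2 at 21.2, Gadd45b at 15.9, Ier5 at 11.3, Ppp1r15a at 7.01, Gadd45a at 4.25, Gadd45g at 2.02, Apold1 at 0.679 and Ier3 at 0.333 CPM per kilobase. At 0.5 h Ier2 led with 63.8, and Ppp1r15a at 17.1 and Ier5 at 16.2 stood above Gadd45b at 10.03 CPM per kilobase. Even at its peak Apold1 had 5.95 CPM per kilobase, below the median of 10.9 over 10915 measured features. At 1.5 h the order was Ier2 at 32.6, Ier5 at 13.5, Ppp1r15a at 9.10, Gadd45b at 8.67, Apold1 at 3.07, Gadd45g at 3.06, Gadd45a at 1.88 and Ier3 at 0.0813 CPM per kilobase. At 5 h it was Ier2, Ier5, Gadd45b, Ppp1r15a, Gadd45a, Gadd45g, Apold1 and Ier3. Neighbours in the order whose lanes overlapped were Apold1 and Ier3 in the control and Ppp1r15a and Ier5 at 0.5 h. At 1.5 h they were Ppp1r15a and Gadd45b, Apold1 and Gadd45g, and Gadd45g and Gadd45a, and at 5 h Gadd45b and Ppp1r15a, and Gadd45a and Gadd45g.

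Between stimulated libraries, the log2 ratio was below 0 for 7 of 8 members at 1.5 h against 0.5 h and for 6 of 8 at 5 h against 1.5 h. These counts take in members under the 5 CPM floor, which 6 and 5 of the 8 met in the same order. At 1.5 h against 0.5 h, Gadd45a was called lower (0.433-fold, 0.343 to 0.544), beside 0.221% of 9499 features, and 0 members were called higher, beside 0.189%. The Gadd45a value was -1.005 on the log2 scale, at the edge of a call, and it was -0.88 in unique reads and not called. Ier2 stood at 0.511-fold (0.481 to 0.543), Apold1 at 0.516-fold (0.45 to 0.59) and Ppp1r15a at 0.532-fold (0.489 to 0.577), all just outside. At 5 h against 1.5 h, Apold1 was called lower (0.268-fold, 0.208 to 0.342, 5th from the bottom of 9453), beside 0.444% of features, and 0 members were called higher, beside 0.0952%. With 5 CPM added the Apold1 ratio was -0.97 on the log2 scale and not called. Ier2 stood at 0.527-fold (0.484 to 0.574), and Gadd45b was at 0.934-fold (0.80 to 1.09). The comparisons share libraries, so a high value at 0.5 h enters both the ratio to control and the ratio of 1.5 h to 0.5 h. Over all 8 members the median log2 ratio was -0.60 at 1.5 h against 0.5 h and -0.37 at 5 h against 1.5 h, with medians near 0 over all tested features (-0.01 in both).

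**Figure D3:**
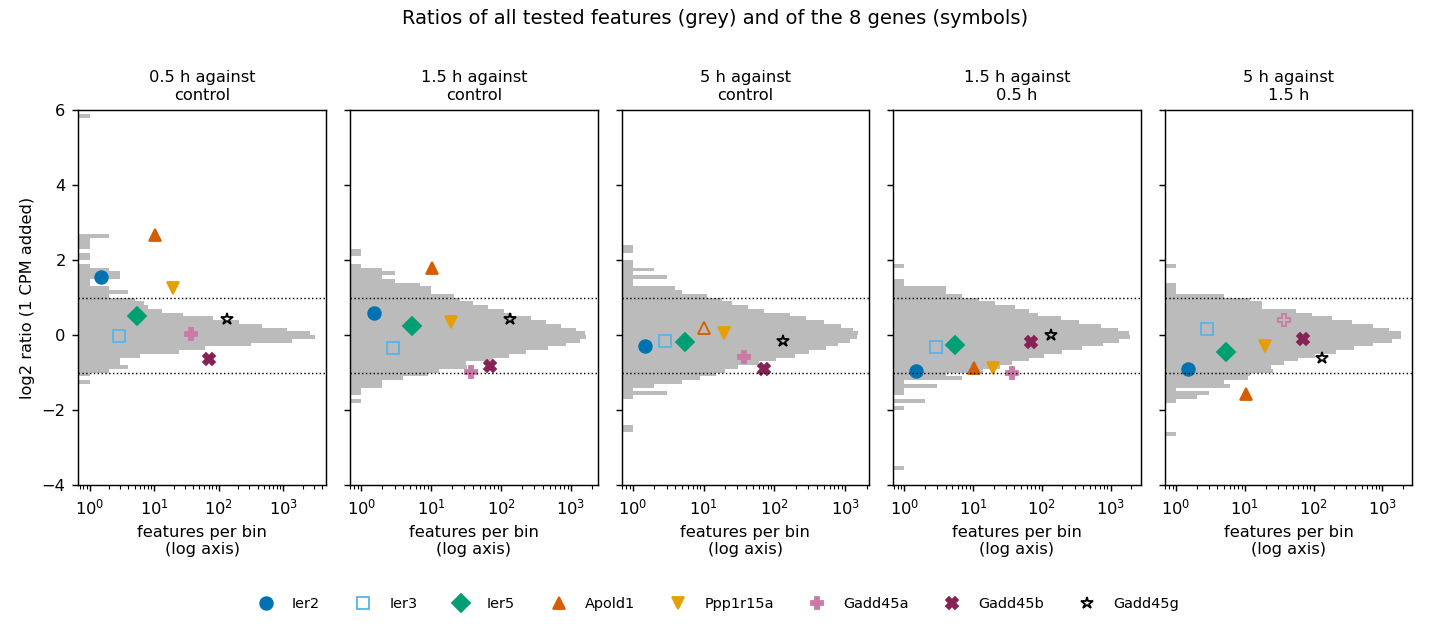
Log2 ratio (1 CPM added) in the 5 comparisons: grey histograms (log count axis) hold all features with at least 5 CPM in either library, symbols the 8 genes, open where the gene is below 5 CPM in both (Gadd45g, drawn as a star, is always below). Symbols are spread sideways for legibility only; Apold1 at 2.67 and Ier2 at 1.56 lie far above the bulk at 0.5 h, and 95% of features lie between -0.23 and 0.36 there.

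Reads of a gene outside its annotated exons usually come from unspliced RNA, and here they are gene reads minus exon reads. Apold1 had 3, 31, 10 and 0 such reads in the control, 0.5, 1.5 and 5 h libraries. The 0.5 h level was 10.5-fold that of control (3.29 to 53.9), next to 8.77-fold in exons, and as a share of its gene reads it was 4.47% (exact interval 3.06 to 6.29) at 0.5 h and 3.75% (0.78 to 10.6) in the control. The 0 reads at 5 h allow up to 0.0976 CPM. Ppp1r15a had 2, 14, 7 and 5 reads outside exons, 7.14-fold of control (1.64 to 64.7) at 0.5 h, but only 1 of the 14 was uniquely placed. Gadd45b had 18, 17, 19 and 13 such reads, at 0.963-fold of control (0.466 to 1.98) at 0.5 h and 1.12-fold (0.555 to 2.26) at 1.5 h. Its exon level stood at 0.544-fold (0.477 to 0.618) at 1.5 h, and the intervals of the exon and outside ratios overlap. The outside share of Gadd45b reads was 2.52% (1.50 to 3.95) in the control, 3.80% (2.23 to 6.02) at 0.5 h, 5.04% (3.06 to 7.76) at 1.5 h and 3.96% (2.13 to 6.68) at 5 h. Over all features, outside reads relative to exon reads were at 0.994-fold of control at 0.5 h, 1.04-fold at 1.5 h and 1.10-fold at 5 h. Gadd45a had 1 to 6 and Gadd45g 5 to 7 reads outside exons in each library, too few to compare, and Ier2 and Ier5 have none to measure.

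**Figure D4:**
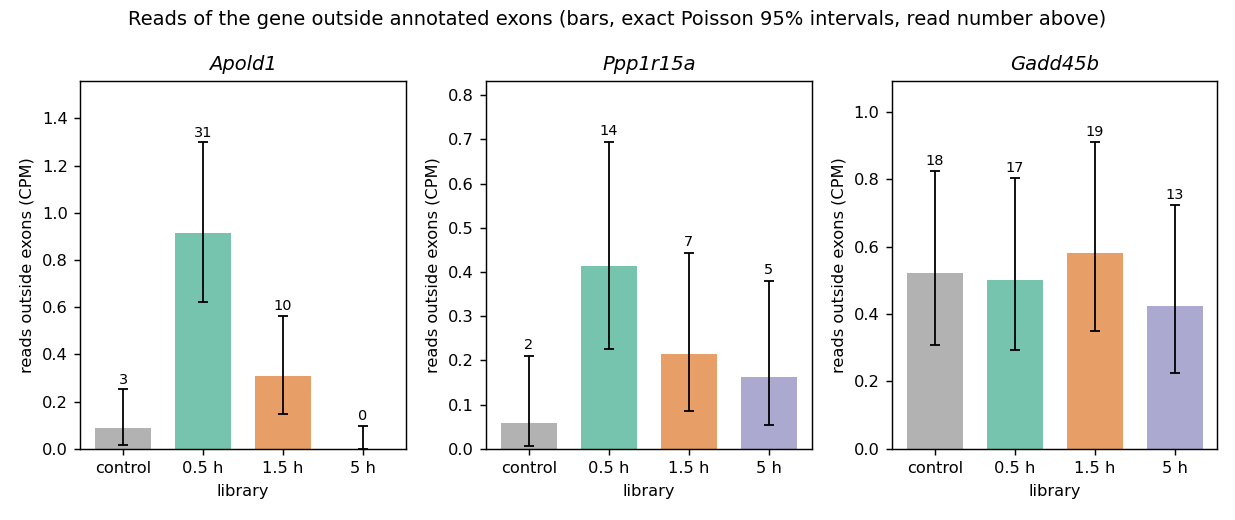
Reads outside annotated exons of Apold1, Ppp1r15a and Gadd45b, in CPM (linear axes from 0), in the control, 0.5, 1.5 and 5 h libraries; error bars are exact Poisson 95% intervals, or the limit of 3 reads for the 0, and numbers are reads. Apold1 peaks at 31 reads at 0.5 h, while Gadd45b stays between 13 and 19.

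For each member called against control, the 3 features with the most similar ratios to control at 0.5, 1.5 and 5 h were taken from 9028 candidates, by Euclidean distance over the 3 log2 ratios. Those nearest Ier2 were Nfkbid, an inhibitor of the NF-kB family (distance 0.214), the phosphatase gene Dusp2 (0.275) and Cish, a feedback inhibitor of cytokine signalling (0.316). Nfkbid had 19.6, 64.3, 32.2 and 14.0 CPM in the control, 0.5, 1.5 and 5 h libraries. Nearest Ppp1r15a were the mRNA decay regulators Zfp36l1 (0.212), of whose reads 5.53% were unique, and Zfp36l2 (0.327), and the GTPase gene Rhob (0.387). Nearest Apold1 were Egr2 (0.461), Fosb (1.0) and Myc (1.04), so its course had no close match. With 5 CPM added, all 3 neighbours of Ier2, 2 of those of Ppp1r15a and 0 of those of Apold1 were kept.

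A list of 47 other immediate early genes came from general knowledge, but it was chosen with earlier results of these data known. Of the 47, 40 reached 1 CPM at 0.5 h or in the control. At 0.5 h against control 14 of these 40 were called higher and 0 were called lower. Their median log2 ratio was 0.58, beside 0.00 over all measured features. Of all features at the 5 CPM floor, 0.284% were called higher and 0.021% lower, while list genes were counted from 1 CPM. Because the list was chosen with these contrasts known, nothing is read from its counts. Egr1, a zinc finger factor, had the largest ratio with 153.3 CPM at 0.5 h and 1.77 CPM in the control, 86.8-fold (67.4 to 113.6). Nr4a1, an orphan nuclear receptor, was 7.40-fold (6.19 to 8.90) and Fosb, an AP-1 subunit, 10.8-fold (7.63 to 15.8). At 1.5 h the list had 8 higher calls and 0 lower among 38, at a median of 0.39. At 5 h 0 of 37 were higher and 1, Klf10, was lower, with a median of -0.07. The shares of all features were 0.641% higher and 0.21% lower at 1.5 h, and 0.336% higher and 0.399% lower at 5 h. Of 13 measured NF-kB targets 3 were called higher at 0.5 h, beside 0.284% of all features, with a median of 0.32. The 3 were the chemokine gene Ccl3 (8.045-fold, 5.67 to 11.7), Nfkbid (3.29-fold, 3.02 to 3.59) and the cytokine gene Tnf (2.36-fold, 2.05 to 2.73). At 1.5 h 1 of the 13 was called higher, again Ccl3 (7.50-fold, 5.27 to 10.9), beside 0.641% of all features, and 0 were at 5 h. This list was chosen in the same way, and Nfkbia and Tnfaip3 are in both lists.

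The genes around Ppp1r15a in the eIF2 pathway were taken next. Of 16 measured eIF2 kinases, phosphatase subunits and stress response genes 0 were called at 0.5 or 1.5 h, with medians of 0.05 and 0.00. At 5 h 0 were higher and 1, the pseudokinase gene Trib3 (0.433-fold, 0.378 to 0.495), was lower, with a median of -0.15. Of 9520 features 0.399% were called lower at 5 h, and nothing is read from 1 gene. With 0.284, 0.641 and 0.336% of all features called higher at 0.5, 1.5 and 5 h, a count of 0 among 16 is near the background. These shares are over features at the 5 CPM floor, while the 16 were counted from 1 CPM. Atf4, the transcription factor of this response, stood at 1.32-fold (1.28 to 1.36) at 0.5 h and 1.78-fold (1.73 to 1.83) at 1.5 h. Ppp1r15b, the constitutive relative of Ppp1r15a, had 226.7 CPM in the control and stood at 1.15-fold (1.12 to 1.19) at 0.5 h. Ier5l, the relative of Ier5, had 0 reads in every library.

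The p53 targets, GADD45 partners and heat shock genes were lists set beside the other members. Of 14 measured p53 targets 0 were called at 0.5 h, 1 was called higher at 1.5 h, the nuclease gene Aen (2.44-fold, 2.27 to 2.64), and 0 were at 5 h, with medians of 0.15, -0.04 and 0.01. Of all features 0.641% were called higher at 1.5 h. At the shares of all features called, counts of 0 in lists of this size are near the background. Cdkn1a, which encodes the GADD45 partner p21, had 2.40, 3.46, 3.07 and 1.43 CPM in the control, 0.5, 1.5 and 5 h libraries. Of 11 measured GADD45 partner kinases and cell cycle genes 0 were called at any time, with medians of 0.01, 0.02 and -0.12. Of 9 measured HSF1 and heat shock genes, the list set beside Ier5, 0 were called, with medians of -0.02, 0.21 and 0.28. The largest of these at 5 h was Hspd1, a mitochondrial chaperonin, at 1.51-fold (1.47 to 1.55), with 40.7% of its reads unique.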

How the data were processed

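RNA was isolated with PeqGOLD TriFast, poly(A) selected, prepared by TruSeq or NEBNext (not stated for each library) and sequenced on an Illumina HiSeq, per the labels' protocols. The submitters' processing notes name CASAVA 1.8.2 and mm10; no aligner, counter or strand setting was found in the sources. Per the file headers, the deposited values used are raw counts of total and unique exon and gene reads, per feature and lane. Lanes held 7631791 to 8709054 exon reads, and 84.0 to 84.6% of exon reads were unique; chi-square per degree of freedom between lanes was 0.992 to 1.01 in unique and 1.24 to 1.32 in total reads. Lanes were summed, counts were scaled to CPM, and log2 ratios were taken with 1 CPM added. Printed folds are plain CPM ratios with exact Clopper-Pearson 95% intervals. The procedure was run on simulated counts with known folds, set only in features with higher control levels than several members have. Those counts had counting error but no spread between libraries, so the run says nothing on that spread. Members and gene lists were chosen with earlier results of these data known. Named genes were the members, their 3 nearest features, and up to 4 genes of a list with the largest ratios, plus a few relatives. Loci are from the tables and GENCODE vM21. Alternatives were TMM (edgeR 4.0.16) and DESeq2 1.42.0 size factors, other pseudocounts, floors and folds, unique and gene reads, and lanes left out or paired. Python 3.11.15, pandas 2.3.3, numpy 2.4.6, scipy 1.17.1, matplotlib 3.10.9 and R 4.3.3 were used.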

Additional observations from a re-analysis of the deposited data

Results flagged for a closer look

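In 4 of 32 groups of 4 lanes (8 genes in 4 libraries) 1 lane stood apart from the other 3 by more than Dixon's 95% critical value, where chance gives about 1 in 20. All 4 were in the 1.5 h library. Ier2 had 47.5 CPM (388 reads) in lane 4, against 50.2 to 50.4 CPM (407 to 413 reads) in the other lanes. The rule weighs the gap against the range of the 4 lanes and not against counting error. A small gap, as for Ier2, is therefore flagged where the other lanes lie close together. Apold1 had 12.3 CPM (101 reads) in lane 2, against 9.22 to 9.51 CPM. Gadd45a had 4.98 CPM (41 reads) in lane 2, against 2.69 to 2.83 CPM. Ier3 had 0.365 CPM in lane 2, which is 3 reads, against 0 in the others. With the other lanes tied at 0 the rule flags any read number, so the Ier3 flag carries no information. Without lane 2 Gadd45a was called lower at 1.5 h against control, and Apold1 stayed called higher.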

How the results depend on the processing

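Of 600 log2 ratios of members under 15 alternatives, 564 kept their direction and their side of the call, and 13 lost and 13 gained the call. The sign changed in 10 ratios without a call, and 0 called values reversed. The size of a change that kept sign and call was not judged. The 3 calls at 0.5 h against control held under TMM, DESeq2, both pseudocounts, unique and gene reads and each lane left out; with a floor of 20 CPM Apold1 was lost, and at 1.5-fold there were 4, with Gadd45b gained as lower. At 1.5 h against control, the 1 call became 2 with 0.1 CPM added, 0 at a floor of 20 CPM (without Apold1), 4 at 1.5-fold, 1 to 2 with a lane left out, and 2 with lane numbers as a replicate block; Gadd45a was the gene gained, joined at 1.5-fold by Ier2 and Gadd45b. At 5 h against control 1.5-fold gave 2 in place of 0. At 1.5 h against 0.5 h the 1 call, Gadd45a, became 0 under TMM, DESeq2, 5 CPM added, a floor of 20 CPM, unique reads and gene reads, 4 at 1.5-fold, and 0 to 1 with a lane left out (lost without lane 1, 3 or 4). At 5 h against 1.5 h the 1 call, Apold1, became 0 with 5 CPM added and at a floor of 20 CPM, and 2 at 1.5-fold. The cause of these moves was not tested. Over all features, the 29, 81, 70, 39 and 51 calls in the 5 comparisons became 19, 38, 36, 20 and 32 with 5 CPM added, and a floor of 20 CPM left 17 at 0.5 h and 45 at 5 h against control. The replicate block changed no other call of a member; lane numbers pair sequencing lanes, not cultures.

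With 1 library per condition, differences between cultures, library kits and conditions cannot be told apart. Depth limits Ier3 and Gadd45g most: Ier3 had at most 13 reads in a library.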

Other observations

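Reads that span an exon junction made up 22.7% of Gadd45b exon reads in the control (exact interval 19.6 to 26.0), 20.7% at 0.5 h (17.0 to 24.8), 18.7% at 1.5 h (14.8 to 23.1) and 15.2% at 5 h (11.5 to 19.7). For Ppp1r15a this share was 3.52, 4.23, 3.67 and 2.71% in the same order. The intervals of the 4 libraries overlapped for both genes, for Gadd45b only just between the control and 5 h. Gadd45gip1, which encodes a partner of the GADD45 proteins, had 11.2 CPM in the control and stood at 1.16-fold at 0.5 h, 1.45-fold (1.27 to 1.66) at 1.5 h and 1.37-fold at 5 h, with no call. Relative to all measured features, Ier2 per kilobase of exon was at percentile 71.3 in the control, 91.8 at 0.5 h, 81.3 at 1.5 h and 64.5 at 5 h.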
